A study of Homo sapiens with 4 samples.

Results

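Semaphorins, plexins and neuropilins are the ligands and receptors of one guidance system, first known from growing axons and later from leukocytes. Here their 31 gene rows were described in MV4;11, an established human acute myeloid leukaemia line, out of 56638 rows in the count table. The members were selected by gene symbol alone: SEMA3 to SEMA7 genes, PLXNA to PLXND genes, NRP1 and NRP2. They comprised 20 semaphorins, 9 plexins and 2 neuropilins. No gene was admitted or left out by its own counts, but the family was taken up with results of the same contrast already known. Fold changes and calls below therefore describe these libraries and are not independent support for a response.

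MV4;11 cells, known for a fusion of KMT2A to AFF1 and for a FLT3 internal tandem duplication, had been cultured for 24 h with CU-T12-9 at 1 µg/mL (2 libraries) or with vehicle (2 libraries). As a small molecule, CU-T12-9 activates the receptor pair TLR1 and TLR2. The sample labels give the vehicle as DMSO and the treatment protocol gives PBS; the name DMSO is used here, and an effect of the vehicle itself cannot be told apart from the contrast. All cells were of one line described as parental, with no other treatment or allele given, and whether replicate libraries were grown as separate cultures is not stated. SDs and standard errors therefore measure only the spread between these libraries, which may be technical.

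Semaphorins share an extracellular sema domain. Class 3 members are secreted, classes 4 to 6 cross the membrane, and SEMA7A is held by a GPI anchor. Plexins are the signalling receptors, and their cytoplasmic part acts on small GTPases of the Ras and Rap type and so on adhesion and the actin skeleton. Neuropilins have a short cytoplasmic tail and serve as co-receptors, chiefly for class 3 semaphorins, which they present to A-type plexins, and for VEGF family ligands. In the immune system SEMA4A, SEMA4D and SEMA7A are the best-known ligands, with roles in contacts between myeloid cells and lymphocytes.

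The promoters of 4 members are shown: NRP2, which was without a read under DMSO, and SEMA4A, SEMA3B and PLXNC1, which hold a match to a binding motif of a factor family active in Toll-like receptor signalling. These 3 were called higher under CU-T12-9, where 32% of all tested genes were called higher and 33.2% lower. The fourth member with such a match, SEMA3F, was called lower (log2 fold change -0.80), and its promoters are not shown. Each sequence runs 5′ to 3′ on the strand of the gene, from 250 bases before to 50 bases after a RefSeq start site (GRCh38.p14), and capitals mark the motif matches. They are the NRP2 promoter at chr2:205682251-205682550 (plus strand), a SEMA4A promoter at chr1:156154298-156154597 (plus strand), a SEMA3B promoter at chr3:50268911-50269210 (plus strand) and a PLXNC1 promoter at chr12:94148327-94148626 (plus strand).
NRP2: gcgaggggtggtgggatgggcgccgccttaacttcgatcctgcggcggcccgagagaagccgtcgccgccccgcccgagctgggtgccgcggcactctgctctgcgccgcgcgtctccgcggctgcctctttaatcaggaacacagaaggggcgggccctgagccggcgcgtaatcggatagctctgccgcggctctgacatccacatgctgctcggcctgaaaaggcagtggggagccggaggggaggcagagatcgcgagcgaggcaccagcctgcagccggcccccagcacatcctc
SEMA4A: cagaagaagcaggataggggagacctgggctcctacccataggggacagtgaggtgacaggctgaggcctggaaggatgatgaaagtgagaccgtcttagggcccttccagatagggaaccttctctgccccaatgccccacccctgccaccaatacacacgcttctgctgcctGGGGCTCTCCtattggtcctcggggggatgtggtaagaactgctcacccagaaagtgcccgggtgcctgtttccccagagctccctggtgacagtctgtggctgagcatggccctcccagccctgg
SEMA3B: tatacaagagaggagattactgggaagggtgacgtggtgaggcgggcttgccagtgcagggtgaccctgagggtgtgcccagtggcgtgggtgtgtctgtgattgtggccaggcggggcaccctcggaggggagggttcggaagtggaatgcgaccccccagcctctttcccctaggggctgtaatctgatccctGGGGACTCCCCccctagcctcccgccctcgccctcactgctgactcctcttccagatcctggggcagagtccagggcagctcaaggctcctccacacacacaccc
PLXNC1: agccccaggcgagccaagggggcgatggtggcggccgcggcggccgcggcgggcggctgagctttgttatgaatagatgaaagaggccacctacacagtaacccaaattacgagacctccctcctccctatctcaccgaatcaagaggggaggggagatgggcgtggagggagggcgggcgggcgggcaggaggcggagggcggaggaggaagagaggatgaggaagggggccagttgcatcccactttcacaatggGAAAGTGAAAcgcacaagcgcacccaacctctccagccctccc

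The NRP2 window held none of the 3 motifs searched. In the SEMA4A window the capitals are an NF-kB match that begins 76 bases before the start site. In SEMA3B they are a pair of overlapping NF-kB matches, on opposite strands, that begin 55 and 54 bases before it. In PLXNC1 they are a match to the interferon-stimulated response element, beginning 7 bases after the start site. These were among several start sites that RefSeq gives for SEMA4A, SEMA3B and PLXNC1, and which of them MV4;11 uses was not measured.

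Over the whole family, 48 promoters of 27 members were found in the RefSeq table, which had no entry for NRP1, SEMA3A, SEMA6A and SEMA6B. Motifs were searched on both strands. The NF-kB motif occurred in 3 of the 48 (one each of SEMA3B, SEMA3F and SEMA4A), against 5.91% of all 35116 promoters in the table. The response element GAAANNGAAA occurred in 3 of the 48 (both PLXNC1 promoters and one of SEMA3F), against 3.57% of all promoters. The AP-1 motif TGACTCA was in 0 of the 48, against 4.95% of all. SEMA3F held a match to the NF-kB motif and to GAAANNGAAA, in separate promoters, and was called lower. SEMA3B, SEMA4A and PLXNC1 held matches to only one or the other and were called higher. Of the members searched and without a match, NRP2, PLXNA3, PLXNB1, PLXNB2, PLXNB3, SEMA4B, SEMA4C and SEMA7A were also called higher. PLXNA1, PLXNA2 and SEMA3G, likewise without a match, were called lower. Of all tested genes 32% were called higher and 33.2% lower, and nothing is read from calls set beside motifs. A match is a description of the letters in a window and not a site of binding.

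Libraries held 23201117 and 23087102 reads for CU-T12-9 and 25867733 and 23892934 reads for DMSO. One read was worth 0.0384 to 0.0442 CPM (read counts relative to TMM-adjusted library sizes). The labelled cell type was checked against its markers: PTPRC, CD33, FLT3, SPI1, LYZ, HOXA9 and MEIS1 were all read in every library, and summed to 2328 and 2449 CPM under CU-T12-9 and 3044 and 2953 CPM under DMSO. Within that sum PTPRC, SPI1, HOXA9 and MEIS1 had higher CPM in both CU-T12-9 libraries than in both DMSO libraries, and CD33, FLT3 and LYZ lower. LYZ, the most abundant of them, had 1226 and 1327 CPM under CU-T12-9, against 2043 and 1961 CPM under DMSO. Summed markers of T cells, B cells and endothelial cells stayed below 1 CPM in all 4 libraries, with CD3D and CD2 at 0 reads. Epithelial markers summed to 2.44 and 2.52 CPM under CU-T12-9 and 2.99 and 3.67 CPM under DMSO, all from KRT8, with EPCAM and CDH1 at 0 reads. Neuronal markers summed to 2.65 and 3.58 CPM under CU-T12-9 and 2.07 and 2.05 CPM under DMSO, with RBFOX3 at 0 reads. Fibroblast markers summed to 1.24 and 0.707 CPM under CU-T12-9, against 0.0768 and 0.0418 CPM under DMSO, mostly from DCN, which had 21 and 15 reads under CU-T12-9 and 0 and 0 under DMSO. The part of this last difference in the family's values was not tested.

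Of the 31 members, 28 had at least 1 read in some library and 21 had enough to be tested. SEMA3D, SEMA5A and SEMA5B had 0 reads in all 4 libraries, which allows up to 0.133 CPM in a library, for counting error only. SEMA5A and SEMA5B, transmembrane semaphorins with thrombospondin repeats, are the whole of class 5, so that class was not detected in this line at this depth. All 9 plexins and both neuropilins were read in at least 1 library.

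Reads of the family made up 0.141% and 0.149% of all reads under CU-T12-9, and 0.0805% and 0.0818% under DMSO. Most of them came from a few genes. PLXNB2, SEMA6B and SEMA4A together took 62.6% and 64.7% of the family's reads under CU-T12-9 and 51.7% and 51.8% under DMSO.

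Among the 21 tested members, 13 were called higher and 4 lower in CU-T12-9, and 4 were not called. Over all 14018 genes tested, 32% were called higher, 33.2% lower and 65.2% in either direction at the same threshold (edgeR quasi-likelihood test, Benjamini-Hochberg adjusted p under 0.05). The calls on the family come from the contrast that was known when it was taken up, and nothing is read from this comparison of shares. The median log2 fold change was 0.59 over the tested members and 0.00097 over all tested genes. Of the 21 tested members, 3 (SEMA3B, PLXNB3 and NRP2) reached the filter's level of 0.425 CPM in both libraries of CU-T12-9 but not in both of DMSO, and 0 did so for DMSO alone. Those 3 could enter the tested set only through the group in which they were high, so the count of 13 and the median are no support for a shift of the family. In these bulk libraries a larger fraction of expressing cells and more RNA per cell cannot be told apart.

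**Figure D1:**
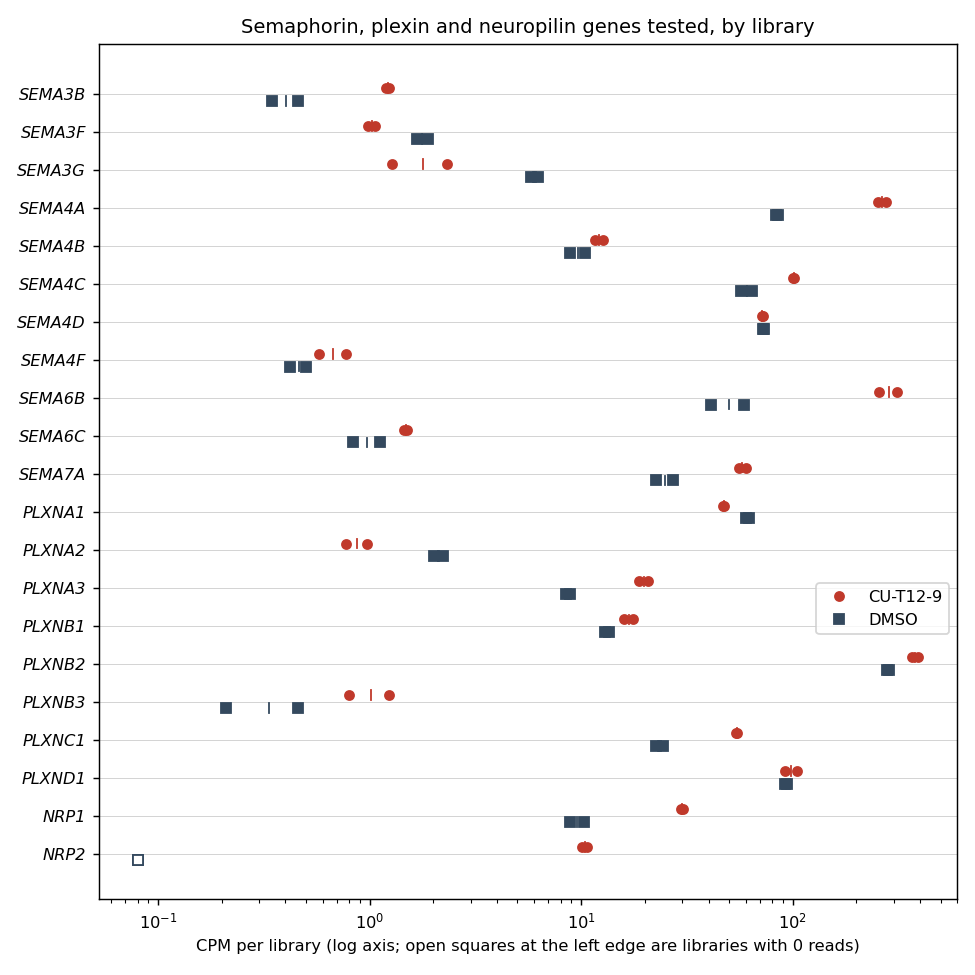
CPM of the 21 tested semaphorin, plexin and neuropilin genes on a log axis, 1 point per library and a short bar at each group mean, with CU-T12-9 (circles) above DMSO (squares) for each gene. The CU-T12-9 and DMSO libraries overlap for PLXND1, and both DMSO libraries of NRP2 have 0 reads. SEMA4D, which was not called, also has separate groups, so separation says little by itself. The share of all tested genes with separate groups was not counted.

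The neuropilins were both higher in CU-T12-9. NRP2, co-receptor for SEMA3F and for lymphatic VEGF ligands and known on mature human dendritic cells in a polysialylated form, had 10.6 and 10.1 CPM (249 and 229 reads) under CU-T12-9, against 0 and 0 reads under DMSO. It was read in both treated libraries and in neither vehicle library. Set against a floor of 3 reads over the 2 DMSO libraries, NRP2 was at least 173-fold higher. NRP1, co-receptor for SEMA3A and VEGFA and a surface marker of plasmacytoid dendritic cells, had 30.1 and 29.5 CPM under CU-T12-9, against 8.83 and 10.3 CPM under DMSO. Its groups lay far apart relative to their spread, at 29.8 ± 0.442 CPM under CU-T12-9 and 9.55 ± 1.02 CPM under DMSO (SD, n = 2 each), a log2 fold change of 1.65 (SE 0.10).

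The 2 neuropilins therefore differed in their state under vehicle: NRP1 was already expressed and NRP2 was not detected. An antisense gene that shares 147 exon bases with NRP2 in GENCODE v29, listed as AC007362.1, showed the same pattern, with 37 and 49 reads under CU-T12-9 and 0 and 0 under DMSO (at least 31.2-fold higher, against the same floor). No source used here states whether counting used strand, so reads within the shared bases cannot be told apart. The exon union of NRP2 holds 13896 bases, and where in it the reads lay was not measured.

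Secreted semaphorins were scarce. Of 7 class 3 genes, 6 had reads and 3 were tested: SEMA3B was called higher, and SEMA3F and SEMA3G lower, where 65.2% of all tested genes were called in either direction. SEMA3G, a ligand that acts through NRP2 and is best known from endothelium, had 2.31 and 1.28 CPM under CU-T12-9, against 6.22 and 5.80 CPM under DMSO. Both treated libraries lay below both vehicle libraries although they differed between themselves, with a log2 fold change of -1.74 (SE 0.24). SEMA3F, the main semaphorin ligand of NRP2, had 0.984 and 1.06 CPM under CU-T12-9, against 1.88 and 1.67 CPM under DMSO. Its log2 fold change was -0.80 (SE 0.25), from 23 and 24 reads under CU-T12-9 and 49 and 40 reads under DMSO. That call was lost with DESeq2 and when any library but the second CU-T12-9 library was left out.

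SEMA3B, which binds both neuropilins and is a candidate tumour suppressor of chromosome arm 3p, had 1.24 and 1.19 CPM under CU-T12-9, against 0.345 and 0.459 CPM under DMSO. The groups did not overlap, and the log2 fold change was 1.59 (SE 0.33), from 29 and 27 reads under CU-T12-9 and 9 and 11 reads under DMSO. The 2 SEMA3 genes that fell and the one that rose were all below 7 CPM in every library. SEMA3C, SEMA3E and SEMA3A did not reach the filter. SEMA3C had 7 and 12 reads under CU-T12-9 and 3 and 0 reads under DMSO, a ratio of 6.88 per TMM-adjusted library size (exact 95% interval 2.03 to 36.3). SEMA3E, the ligand of PLXND1, had 6 and 10 reads under CU-T12-9 and 5 and 3 reads under DMSO (ratio 2.17, 0.878 to 5.87). SEMA3A, the founding ligand of NRP1, had 1 and 1 reads under CU-T12-9 and 4 and 8 reads under DMSO (ratio 0.181, 0.0197 to 0.814). With no filter on low counts SEMA3C alone of the 7 untested members with reads was called, as higher. With 1 library left out under the default filter, SEMA3C was called without the first DMSO library or the first CU-T12-9 library, was not called without the second DMSO library, which had 0 reads (log2 fold change 1.79), and did not reach the filter without the second CU-T12-9 library.

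The transmembrane semaphorins were the abundant ligands. SEMA6B, a class 6 ligand of A-type plexins, had 255 and 312 CPM under CU-T12-9, against 41.3 and 59.0 CPM under DMSO. The libraries of each group differed from one another, yet the lowest treated library lay well above the highest vehicle library. Its log2 fold change of 2.50 (SE 0.15), a 5.67-fold difference, was the second highest among tested members, after NRP2. SEMA4A, which dendritic cells use in the priming of T cells, had 254 and 275 CPM under CU-T12-9, against 85.5 and 83.6 CPM under DMSO. Its mean was 265 ± 15.2 CPM under CU-T12-9 and 84.5 ± 1.34 CPM under DMSO (SD, n = 2 each), with a log2 fold change of 1.65 (SE 0.06).

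SEMA4C, a ligand of PLXNB2, had 102 and 101 CPM under CU-T12-9, against 56.9 and 64.6 CPM under DMSO (log2 fold change 0.74, SE 0.07). SEMA4B had 11.7 and 12.7 CPM under CU-T12-9, against 8.87 and 10.4 CPM under DMSO (0.34, SE 0.12), and its call was lost with DESeq2 and without the first DMSO library. SEMA4D, also called CD100 and the ligand of PLXNB1 and CD72, had 71.8 and 72.1 CPM under CU-T12-9 and 72.4 and 72.9 CPM under DMSO. All 4 of its libraries lay within about 1 CPM of one another, the log2 fold change was -0.01 (SE 0.05), and it was not called. SEMA4F and SEMA6C were also not called, with log2 fold changes of 0.54 (SE 0.37) and 0.59 (SE 0.28) from at most 18 and 35 reads in a library.

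The low class 4 and class 6 genes stayed untested. SEMA4G had 4 and 1 reads under CU-T12-9 and 9 and 5 reads under DMSO, and 1170 of its exon bases are shared with MRPL43 on the opposite strand, which had 962 and 939 reads under CU-T12-9 and 1327 and 1180 reads under DMSO. SEMA6D, a ligand of PLXNA1, had 5 and 4 reads under CU-T12-9 and 0 and 1 reads under DMSO (ratio 9.78, 1.36 to 429). SEMA6A had 0 and 4 reads under CU-T12-9 and 4 and 2 reads under DMSO (ratio 0.724, 0.150 to 3.05), and its groups overlapped. Within class 6 the level was thus held by SEMA6B, at 13044 reads under CU-T12-9 and 2490 under DMSO over both libraries. SEMA6C had 68 reads under CU-T12-9 and 49 under DMSO.

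SEMA7A, the GPI-anchored semaphorin and blood group antigen CD108, had 55.8 and 60.0 CPM under CU-T12-9, against 22.6 and 27.1 CPM under DMSO. The groups were separate, at a log2 fold change of 1.22 (SE 0.09). SEMA7A binds PLXNC1 and the integrin of the ITGA1 and ITGB1 chains. PLXNC1 had 54.7 and 54.1 CPM under CU-T12-9, against 24.3 and 22.6 CPM under DMSO, with a log2 fold change of 1.21 (SE 0.07). Ligand and plexin were thus each about 2.3-fold higher (2.34-fold for SEMA7A and 2.32-fold for PLXNC1), while the integrin chains moved in opposite directions. ITGA1 had 37.5 and 40.9 CPM (877 and 926 reads) under CU-T12-9, against 0.115 and 0.0835 CPM (3 and 2 reads) under DMSO. ITGB1, the abundant shared beta chain, was called lower, at 64.0 ± 1.55 CPM under CU-T12-9 and 82.7 ± 2.15 CPM under DMSO (SD, n = 2 each, log2 fold change -0.37, SE 0.06).

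**Figure D2:**
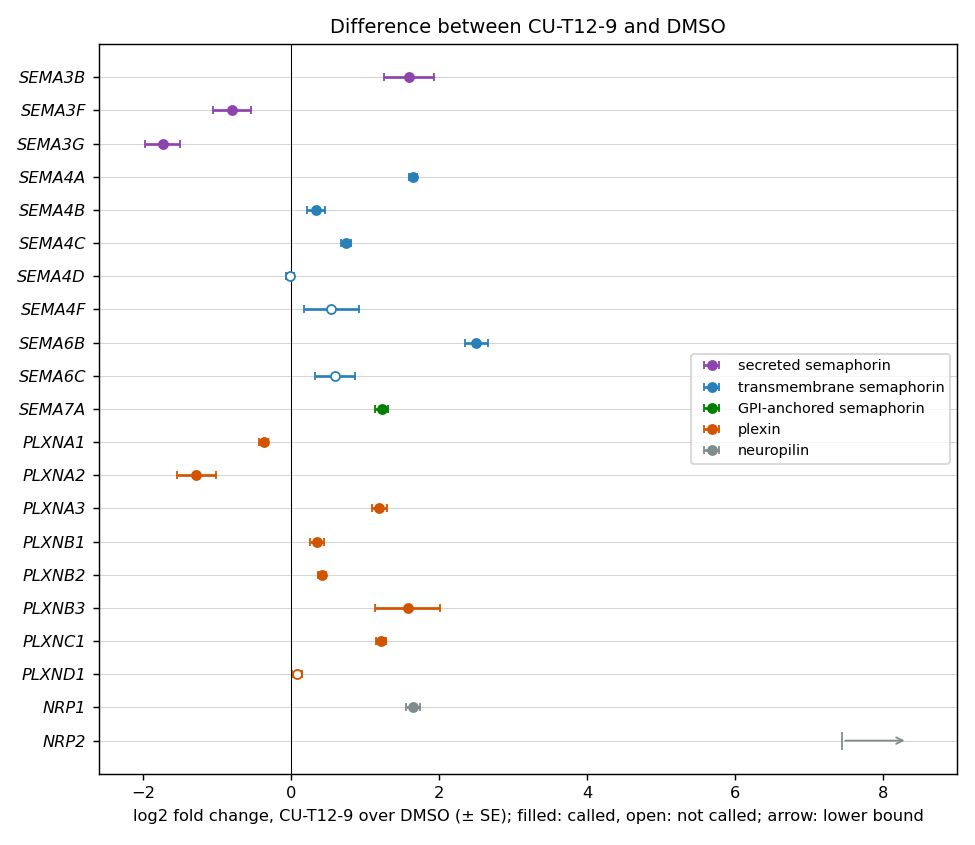
Log2 fold change of CU-T12-9 over DMSO for the 21 tested members (points with ± SE bars, coloured by role, filled where called), with an arrow from the lower bound for NRP2. SEMA6B at 2.50 lies highest among the members with a fitted point, and SEMA3G at -1.74 lowest.

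Type A plexins differed in direction. Over the 8 tested plexins 5 were called higher and 2 lower, beside 32% and 33.2% of all genes, and nothing is read from these counts. PLXNA3, a receptor for SEMA3F together with NRP2, had 20.7 and 18.8 CPM under CU-T12-9, against 8.87 and 8.44 CPM under DMSO (log2 fold change 1.19, SE 0.10). PLXNA1, which pairs with NRP1 for SEMA3A and binds SEMA6D directly, had 46.8 and 47.6 CPM under CU-T12-9, against 61.9 and 60.0 CPM under DMSO (-0.37, SE 0.06). PLXNA2 had 0.770 and 0.972 CPM under CU-T12-9, against 2.23 and 2.00 CPM under DMSO (-1.28, SE 0.26). PLXNA4, a known receptor of SEMA6B, had only 2 and 0 reads under CU-T12-9 and 3 and 3 reads under DMSO. PLXNA2 and PLXNA4, the plexins best known to bind SEMA6B, were thus at most 0.972 CPM in any CU-T12-9 library.

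The type B plexins PLXNB2, PLXNB1 and PLXNB3 were called higher, PLXNB3 having been testable only through CU-T12-9. PLXNB2, which binds class 4 semaphorins, had 366 and 393 CPM under CU-T12-9, against 286 and 280 CPM under DMSO, a log2 fold change of 0.42 (SE 0.05). PLXNB1, the SEMA4D receptor, had 17.6 and 16.0 CPM under CU-T12-9, against 13.5 and 12.9 CPM under DMSO (0.35, SE 0.10), and was not called without the second DMSO library. PLXNB3 had 29 and 18 reads under CU-T12-9, against 12 and 5 reads under DMSO (1.57, SE 0.44), and lost its call with DESeq2 and without the second DMSO library. Its log2 fold change was 2.25 without the first DMSO library and 1.13 without the second. PLXNB3 also shares 1432 exon bases with SRPK3 on the same strand, and that gene was lower, with 5 and 4 reads under CU-T12-9 and 21 and 15 reads under DMSO. PLXND1, the receptor of SEMA3E and of SEMA4A, had 91.8 and 105 CPM under CU-T12-9 and 94.3 and 92.2 CPM under DMSO. Its groups overlapped, with a log2 fold change of 0.08 (SE 0.07), and it was called higher (0.21) without the first CU-T12-9 library.

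Levels were compared between genes per kilobase of exon sequence, using the union of GENCODE v29 exons for each symbol. Under CU-T12-9 SEMA6B came first at 64.4 CPM per kb, then PLXNB2 at 52.3, SEMA4A at 38.8, SEMA4C at 16.5, SEMA7A at 15.2 and PLXND1 at 10.1 CPM per kb. The library values of these 6 genes did not overlap between neighbours in the order. Under DMSO PLXNB2 came first at 39.0 CPM per kb, apart from the rest. SEMA4A at 12.4, SEMA6B at 11.4, SEMA4C at 9.86 and PLXND1 at 9.57 CPM per kb followed, and each neighbouring pair among these overlapped between libraries. SEMA7A at 6.53 CPM per kb was next. A union of exons counts sequence that the line's own transcripts may lack, so the order is approximate.

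Among receptors, PLXNB2 and PLXND1 were the highest plexins per length in both groups. PLXNC1 stood at 5.50 CPM per kb under CU-T12-9 and 2.37 under DMSO, and PLXNA1 at 4.31 under CU-T12-9 and 5.57 under DMSO. PLXNC1 was thus above PLXNA1 under CU-T12-9 and below it under DMSO, without overlap of libraries in either group. NRP1 reached 2.59 CPM per kb under CU-T12-9 and 0.829 under DMSO, and NRP2 0.747 under CU-T12-9.

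**Figure D3:**
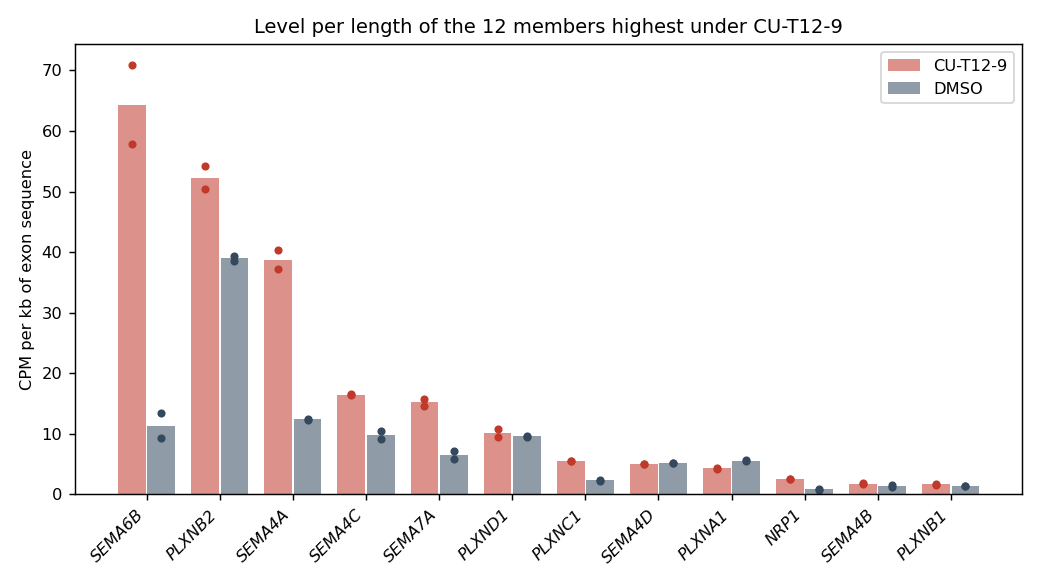
Mean CPM per kilobase of exon union for the 12 members highest under CU-T12-9 (bars from 0, with 1 point per library), CU-T12-9 left of DMSO. SEMA6B is at 64.4 under CU-T12-9 and 11.4 under DMSO, while SEMA4D is at 5.08 under CU-T12-9 and 5.13 under DMSO.

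Other genes of the pathway came from a list of 69 co-receptors, growth factor ligands, GTPases, effectors and proteases. Of these, 61 had reads and 50 were tested, with 27 called higher and 10 lower, beside the 32% and 33.2% given above for all genes. Of the 50, 2 (ITGA1 and PCSK6) reached the filter's level only through CU-T12-9 and 2 (PGF and FYN) only through DMSO. The median log2 fold change was 0.29 over the 50 and 0.00097 over all tested genes, and nothing is read from these counts or from those of the single lists. Of the 50, 9 were called with a change of at least 2-fold. PGF was lower (log2 fold change -1.23) and did not reach 1 CPM in either group. Values are given for the other 8, which reached 1 CPM in a group and were higher in CU-T12-9, ITGA1 among them. Over all 14018 tested genes, 1544 were called at least 2-fold higher and 1302 at least 2-fold lower.

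RND1, which binds plexin cytoplasmic domains, had 11.6 and 12.4 CPM under CU-T12-9, against 1.88 and 1.29 CPM under DMSO (log2 fold change 2.90, SE 0.17). RAC1, which also binds several plexins, had 375 and 407 CPM under CU-T12-9, against 187 and 187 CPM under DMSO (1.06, SE 0.06). RRAS, a Ras protein that plexins switch off, had 8.81 and 9.72 CPM under CU-T12-9, against 4.38 and 3.72 CPM under DMSO (1.19, SE 0.14). SH3BP1, a GTPase-activating protein for Rac bound by PLXND1, had 105 and 115 CPM under CU-T12-9, against 46.9 and 48.6 CPM under DMSO (1.20, SE 0.06). The groups of all 4 genes were separate, as were those of SEMA4D, which was not called. Since the share of all tested genes with separate groups was not counted, nothing is read from this. Over the 15 tested small GTPases and regulators 9 were called higher and 2 lower, beside 32% and 33.2% of all genes.

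DPYSL2, the collapsin response mediator that carries class 3 semaphorin signals to microtubules, had 481 and 500.4 CPM under CU-T12-9, against 100.4 and 97.4 CPM under DMSO (log2 fold change 2.31, SE 0.05). It was the one gene past 2-fold among the 19 tested cytoplasmic effectors, of which 9 were called higher and 4 lower, with 65.2% of all genes called in either direction. CFL1, the actin-severing protein cofilin at the end of this pathway, was not called, at 929 ± 58.8 CPM under CU-T12-9 and 922 ± 4.34 CPM under DMSO (SD, n = 2 each).

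Of 6 growth factor ligands of neuropilins, VEGFA was called higher, PGF and TGFB1 lower and VEGFB not called, beside 32% higher and 33.2% lower of all genes. PGF was testable only through DMSO, the group in which it was high. VEGFC and HGF had no reads. VEGFA, a ligand of NRP1, had 80.2 and 58.4 CPM under CU-T12-9, against 29.8 and 31.0 CPM under DMSO (log2 fold change 1.19, SE 0.13). KDR and MET, receptor kinases that pair with neuropilins and plexins, had no reads, and FLT1 and FLT4 at most 11 reads over both libraries of a group. Of 14 co-receptors and other semaphorin receptors, 6 were tested, with 4 called higher and 2 lower, beside 32% and 33.2% of all genes. TYROBP, the adaptor through which PLXNA1 and TREM2 signal for SEMA6D, was higher at 316 ± 20.9 CPM under CU-T12-9 and 159 ± 1.94 CPM under DMSO, and TREM2 was lower at 4.49 ± 0.781 CPM under CU-T12-9 and 7.20 ± 0.675 CPM under DMSO (SD, n = 2 each).

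Of 6 tested proteases that cut semaphorins, 4 were called higher and 0 lower, beside 32% and 33.2% of all genes. MMP14, which releases SEMA4D from the cell surface, had 373 and 396 CPM under CU-T12-9, against 160 and 174 CPM under DMSO (log2 fold change 1.20, SE 0.06). FURIN, the convertase that cuts class 3 semaphorins, was higher at 106 ± 4.51 CPM under CU-T12-9 and 71.3 ± 2.68 CPM under DMSO (SD, n = 2 each), and ADAM17 and ADAM10 were higher by 0.34 and 0.23 on the log2 scale.

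**Figure D4:**
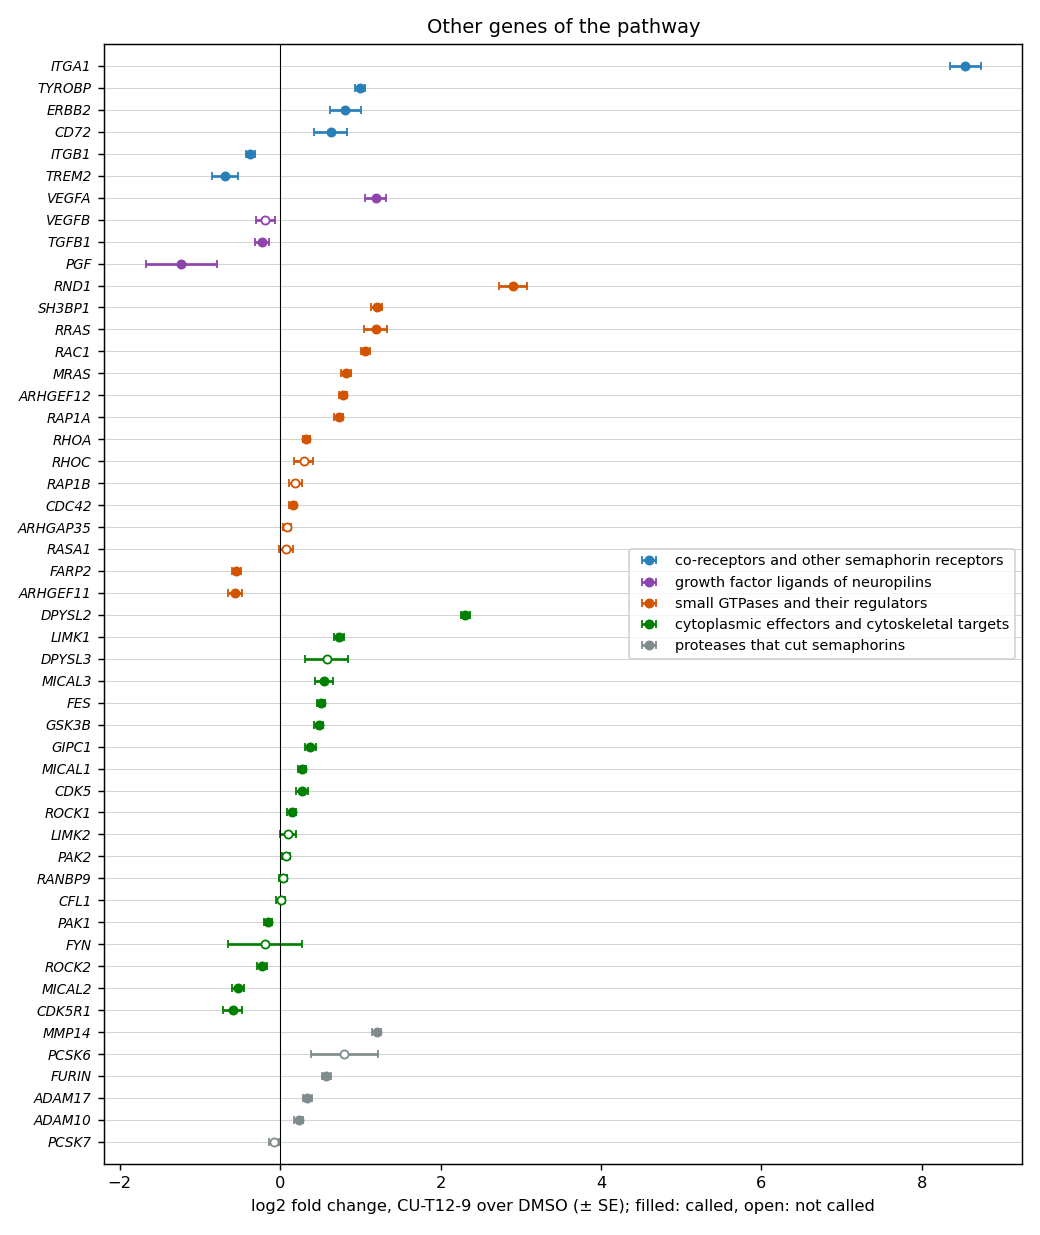
Log2 fold change of CU-T12-9 over DMSO for the 50 tested genes of the pathway outside the family (points with ± SE bars, coloured by list, filled where called). ITGA1 lies far to the right of the others, followed by RND1 at 2.90 and DPYSL2 at 2.31.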

How the data were processed

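RNA from 4 MV4;11 libraries had been sequenced, and the authors deposited 1 table of raw read counts per gene symbol. Per the submitters' processing notes, FastQC 0.11.7, TopHat2 and featureCounts 1.5.2 were used with GRCh37. Annotation, strand setting and treatment of multi-mapping reads were not stated in any source used here. All value columns were used.

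Counts were fitted over the whole table in R 4.3.3 with edgeR 4.0.16: default expression filter, TMM, quasi-likelihood test with group as the only term, Benjamini-Hochberg adjustment over 14018 genes, threshold 0.05. SE is the log2 fold change over the square root of F. CPM used TMM-adjusted library sizes of tested genes. A group without reads was given a floor of 3 reads over both libraries. Ratios of untested genes have exact 95% binomial intervals, for counting error only. Chi-square per degree of freedom between libraries was 6.99 for CU-T12-9 and 2.42 for DMSO, beyond sampling noise. That does not show separate cultures, which no source states, and each library was entered as a sample on that understanding.

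Members and lists were chosen with earlier results of these data known, and the motifs after the values were seen. Every member with reads was reported. Genes of the pathway were named when called with a log2 change of at least 1 and at least 1 CPM in a group, and others named beside them were chosen after their values were seen. Exon unions came from GENCODE v29 and promoters from RefSeq, both of GRCh38. Alternatives were DESeq2 1.42.0, limma-voom (limma 3.58.1), other scalings and filters, a replicate block, each library left out and a test against a fold of 2.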

Additional observations from a re-analysis of the deposited data

How the results depend on the processing

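Calls on 13 higher and 4 lower members became 6 and 1 when tested against a fold of 2, and those on 27 higher and 10 lower genes of the pathway became 5 and 0, while 1013 genes higher (7.23%) and 778 lower (5.55%) were called of all 14018 under that test. With 1 library left out in turn, its group's remaining library was assumed to vary like the other group. The number of genes tested and the share of all genes called also changed in these fits. Counts of calls from them are therefore not given as a measure of stability. A tally of kept and lost calls over all alternatives would mix these fits with the test against a fold of 2, so none is given. With DESeq2, SEMA3F, SEMA4B and PLXNB3 lost their calls. Sign changed only in the uncalled members PLXND1 and SEMA4D. With 1 library left out PLXND1 ran between -0.024 and 0.21, and SEMA4D between -0.028 and 0.021. Replicate numbers carried no pairing in the labels, and same-numbered libraries deviated with a correlation of 0.0079 across genes. With the replicate block 13 members were called higher and 4 lower, and no member's call changed. No scaling moved the median of all genes by over 0.1 on the log2 scale. Depth limits SEMA3B, SEMA3F, PLXNA2 and PLXNB3, and the uncalled SEMA4F and SEMA6C, each under 60 reads in every library. The number of libraries limits all calls.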
